A study of Rattus norvegicus with 20 samples.

Results

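Levels of 10 genes of the basic helix-loop-helix (bHLH) family and its inhibitors were examined in the medial prefrontal cortex (mPFC) of LSD-treated and control rats. They were the E-protein genes *Tcf3*, *Tcf4* and *Tcf12*, the inhibitor genes *Id1*, *Id2*, *Id3* and *Id4*, and the neuronal genes *Neurod1*, *Neurod2* and *Neurod6*. The genes were found by their symbols in a table of reads counted per gene, where they made up 10 of 31038 named genes. All 10 passed the filter on low counts, which asked for 5 or more reads in 10 or more libraries and kept 16605 genes.

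bHLH transcription factors bind DNA as dimers at a short motif called the E-box, with the letters CANNTG. E-proteins are expressed in most tissues and act as shared dimer partners of tissue-restricted factors, such as the NEUROD proteins of excitatory neurons. ID proteins have the dimerisation domain but no DNA-binding region, so that an E-protein bound by an ID protein cannot sit on an E-box. In humans, loss of 1 copy of *TCF4* causes Pitt-Hopkins syndrome, and common variants near this gene are associated with schizophrenia.

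The data came from 10 LSD-treated rats and 10 saline-treated controls, with RNA sequencing of 1 library per rat. Per the labels, all 20 were male Sprague-Dawley rats of 6 to 8 weeks and 180 to 200 g, without any genetic modification named. LSD was injected at 0.16 mg/kg for 90 days, controls received saline, and 3 weeks without injections preceded the collection of tissue. The study's methods give an older age and a somewhat longer interval, equally for both groups. They state age and weight for rats being divided into groups, so the animals were older when tissue was collected. They also describe intraperitoneal injections every other day and 1 hemisphere's mPFC as the tissue. Reads on genes ranged from 16346629 to 25552681 per LSD library and from 11098076 to 24201351 per control library. LSD libraries were thus 1.25-fold larger on average (log2 difference 0.32, exact two-sided permutation test over 184756 splits of the rats, p = 0.0139), which bears on several results below.

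E-boxes stood before the start of some of these genes themselves. The stretch of 250 bases before the annotated start is shown for *Tcf3*, the only gene of the set past the threshold, and for *Neurod2*. Within the set, the level of *Neurod2* followed that of *Tcf3* most closely from rat to rat. As given below, this relation weakened once library size was removed. Capitals mark each CANNTG, a pattern that reads the same on both strands, and the rest is in lower case. The sequences are RefSeq's for the GRCr8 assembly, at chr7:9931001-9931250 on the plus strand and chr10:83824278-83824527 on the minus strand.
Tcf3: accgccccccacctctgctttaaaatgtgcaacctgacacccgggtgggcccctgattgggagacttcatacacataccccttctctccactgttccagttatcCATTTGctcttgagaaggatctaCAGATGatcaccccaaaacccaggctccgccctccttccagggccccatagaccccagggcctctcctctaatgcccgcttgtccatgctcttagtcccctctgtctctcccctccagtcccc
Neurod2: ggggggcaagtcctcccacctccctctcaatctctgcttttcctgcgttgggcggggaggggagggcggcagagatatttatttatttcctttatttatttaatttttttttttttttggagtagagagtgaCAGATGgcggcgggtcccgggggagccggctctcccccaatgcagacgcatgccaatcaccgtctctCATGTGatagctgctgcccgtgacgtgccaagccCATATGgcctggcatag

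The *Tcf3* stretch held 2 matches and the *Neurod2* stretch 3. Each contained 1 copy of CAGATG, a form of the E-box bound by NEUROD proteins. Among 33469 stretches of the same length before other starts, 65.5% held at least 1 CANNTG and 14.0% held CAGATG or its complement CATCTG. *Neurod6* had 4 matches, and *Id1*, *Id2* and *Neurod1* had 1 each. No CANNTG was found in the window of *Tcf4*, *Tcf12*, *Id3* or *Id4*. These matches describe the letters of the windows, and no binding was measured.

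*Tcf3* was lower in LSD-treated rats, and none of the other 9 genes passed the threshold of an adjusted p of 0.05. Levels are given as RPM, the reads of a gene scaled to a common library total, after TMM normalisation, a scaling that sets the typical gene to no change. Among all genes tested, 1418 (8.54%) were called lower and 1076 (6.48%) higher, so 1 lower and 0 higher of 10 genes was near the background. Scaling by total counts instead called 858 genes lower and 1504 higher, with the same calls among the 10. At an unadjusted p under 0.05, 2 of the 10 genes (*Tcf3* and *Id3*) differed, against 5111 of the 16605. DESeq2 called the same 1 gene lower and none higher. The median log2 fold change of the 10 was 0.02, with 6 above and 4 below zero, beside 0.002 over all genes.

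**Figure D1:**
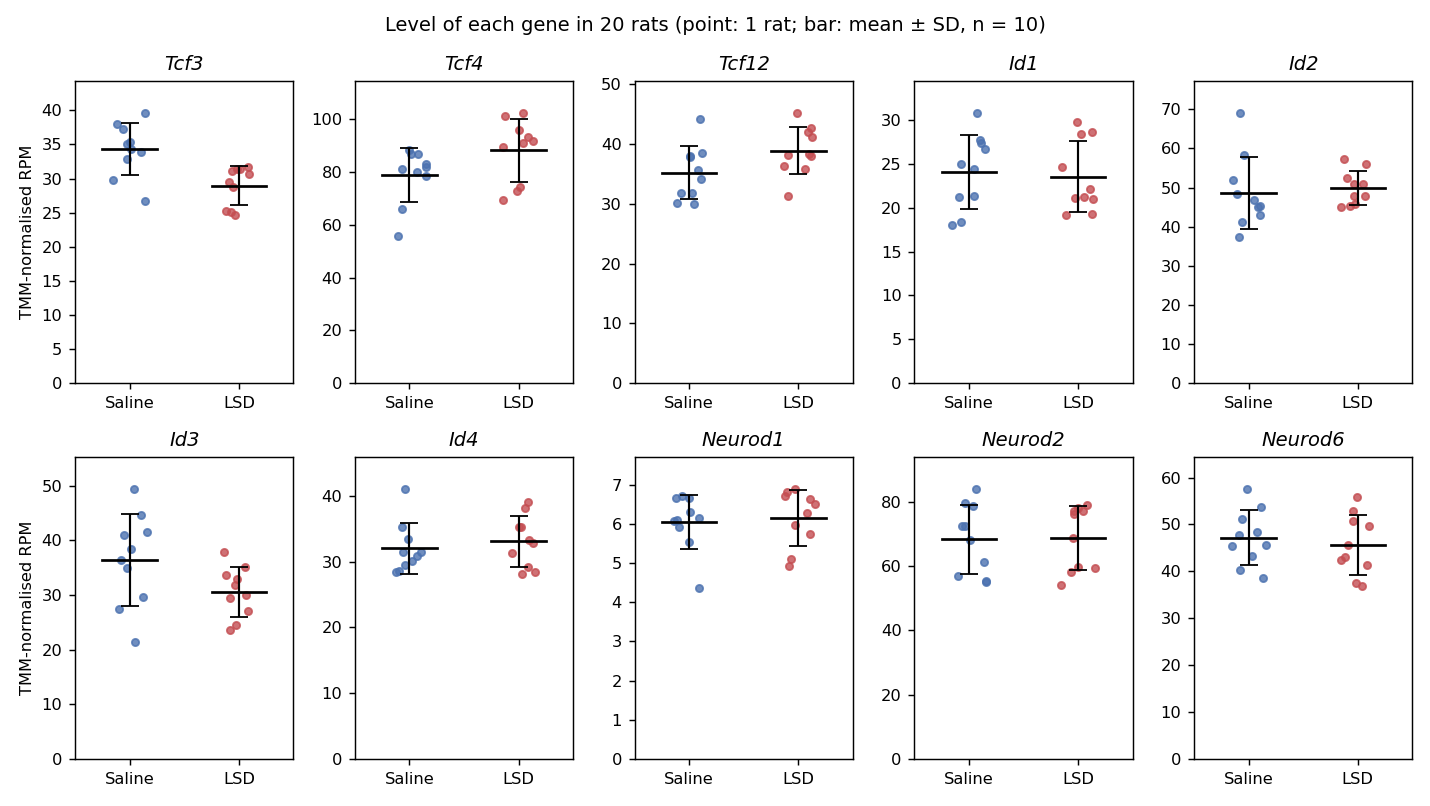
Level of each of the 10 genes in each rat, in TMM-normalised RPM on axes that start at 0, with 1 point per rat and bars for the mean ± SD of 10 rats. All 10 LSD-treated rats lay below the control median of 34.7 RPM for *Tcf3*, whereas the points of both groups are intermingled for the *Neurod* genes.

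*Tcf3* encodes the E-proteins E12 and E47. Its level in LSD-treated rats ran from 24.7 RPM at the lowest through a median of 30.1 to 31.7 RPM, and in controls from 26.8 through 34.7 to 39.6 RPM. All 10 LSD-treated rats lay below the control median, 8 of 10 controls lay above every LSD-treated rat, and the groups overlapped through the lowest controls. The mean was 29.0 ± 2.87 RPM with LSD and 34.3 ± 3.81 RPM in controls (SD, n = 10 each). The log2 fold change was -0.24 (SE 0.069, 95% interval -0.39 to -0.10, edgeR adjusted p = 0.0230), a level 0.845-fold that of controls. Between 403 and 697 reads per library stood behind these values. The gene had the 1337th smallest p-value of the 16605. It kept its direction when any rat was left out, but without control rat 4, which had the highest level, the adjusted p was 0.0506.

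The level of *Tcf3* followed the size of the library. Its 4 lowest values belonged to the 4 largest libraries, namely those of LSD-treated rats 7, 8 and 10 and of control rat 2. Within groups, the level correlated with the log2 number of reads on genes at r = -0.85 over 20 rats, and 0.638% of all genes had a lower r. When library size entered the edgeR model as a covariate, a choice made after this relation was seen, the log2 fold change of *Tcf3* was -0.08 (SE 0.052, adjusted p = 0.331) and the call was lost. Drawing all libraries down to the same number of reads gave -0.25 (edgeR adjusted p = 0.0268). Such drawing leaves each gene's expected share of its library unchanged, so it could not remove this relation. Library size differed between the groups, and its part in the lower level of *Tcf3* was not tested beyond this covariate.

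*Tcf4* was the most highly read of the E-protein genes. Its protein is the E-protein E2-2. In LSD-treated rats its level had a lowest value of 69.4, a median of 91.5 and a highest value of 102.2 RPM, whereas in controls these were 55.6, 81.5 and 88.3 RPM. Of the LSD-treated rats, 7 exceeded the highest control, while the other 3 fell below the control median. The mean was 88.2 ± 11.9 RPM against 78.9 ± 10.3 RPM (SD, n = 10 each), and the log2 fold change of 0.16 (SE 0.084, 95% interval -0.01 to 0.34) did not pass the threshold (edgeR adjusted p = 0.198). With library size as a covariate, the estimate was 0.32 (SE 0.079, adjusted p = 0.0295), past the threshold, and its level correlated with library size at r = -0.65 within groups. In that fit, 534 genes (3.22%) were called higher and 639 (3.85%) lower, so that *Tcf4* was the 1 gene of 10 called higher and 0 of 10 were called lower.

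*Tcf12*, which encodes the E-protein HEB, had a lowest, median and highest level of 31.3, 38.2 and 45.1 RPM with LSD and of 29.9, 34.9 and 44.1 RPM in controls. Of the LSD-treated rats, 9 of 10 lay above the control median, but the ranges of the groups were nearly the same. The mean was 38.9 ± 3.99 RPM against 35.2 ± 4.50 RPM (SD, n = 10 each), with a log2 fold change of 0.14 (SE 0.072, 95% interval -0.01 to 0.29, edgeR adjusted p = 0.186). With library size as a covariate the log2 fold change was 0.05 (adjusted p = 0.705).

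**Figure D2:**
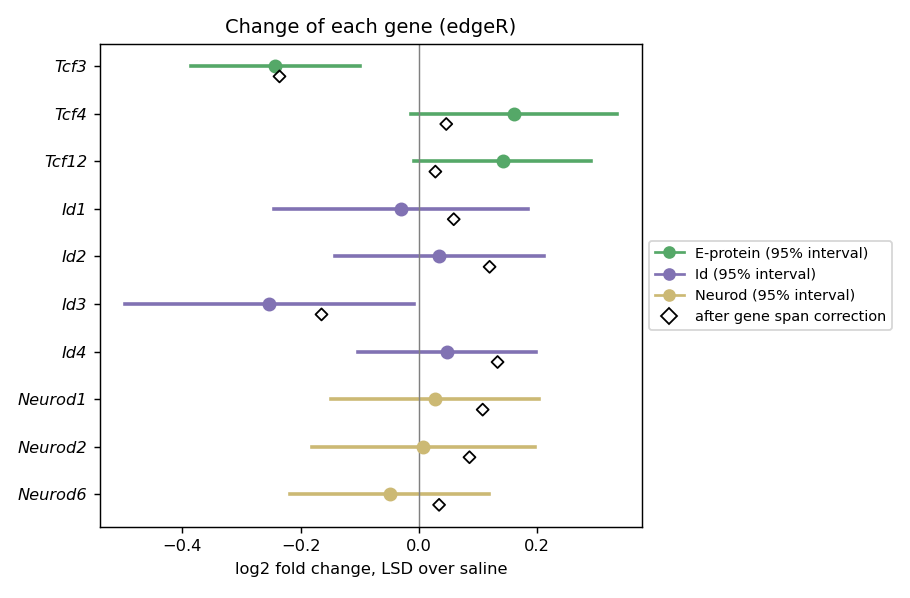
log2 fold change of LSD over saline for each gene, with 95% intervals from edgeR as bars and the estimate after correction for gene span as open diamonds. The interval of *Tcf3* lies wholly below zero at -0.39 to -0.10, as does that of *Id3*, and the diamonds of *Tcf4* and *Tcf12* lie near zero.

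The E-protein genes differ in their span, the distance from start to end in the genome. *Tcf4* covers 346347 bases and *Tcf12* 311137 bases of GRCr8, longer than 97.2% and 96.6% of the genes tested, whereas *Tcf3* covers 21744 bases. Across all genes the log2 fold change rose with span (Spearman's rho 0.36 across 14929 genes, which are not independent replicates). Genes were ranked by span and cut into 50 bins. The bin of 299 genes that held both *Tcf4* and *Tcf12* had a median log2 fold change of 0.10. After a correction for span, the log2 fold change of *Tcf4* was 0.05 (adjusted p = 0.709) and that of *Tcf12* 0.03 (adjusted p = 0.834). *Tcf3*, whose bin had a median of -0.04, was at -0.24 (adjusted p = 0.0319) after the correction.

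**Figure D3:**
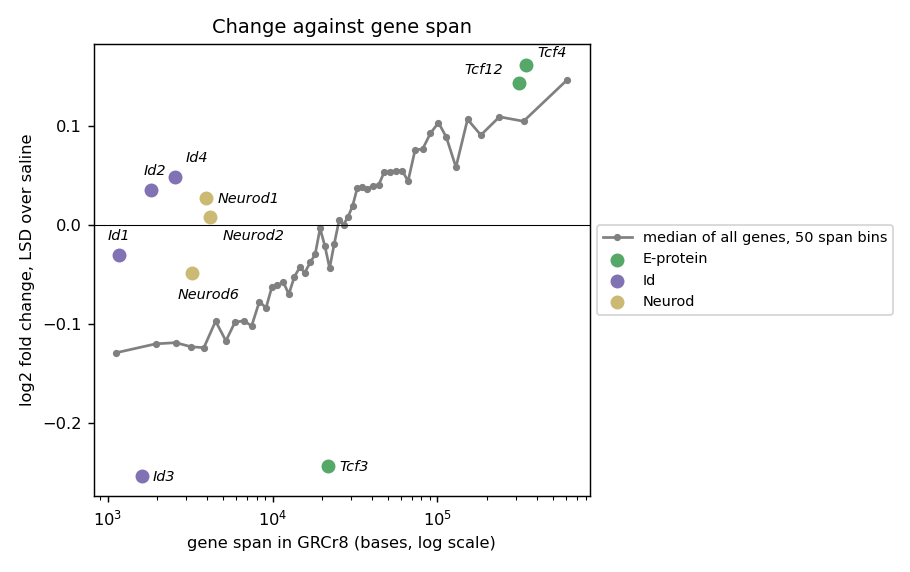
log2 fold change of LSD over saline against gene span in GRCr8 on a log axis, with the 10 genes as coloured points and the median of all genes in 50 bins of span as a grey line. The line rises with span, *Tcf4* and *Tcf12* sit a little above it near 0.10, and *Tcf3* and *Id3* sit below it at about -0.25.

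The balance between the E-protein genes was compared as the log2 ratio of their reads within each library, which needs no scaling between libraries. These 3 ratios were chosen after the levels were seen, and their p-values do not cover that choice. How often other gene pairs reach such differences was not examined. The ratio of *Tcf4* to *Tcf3* was 1.60 ± 0.161 with LSD (from 1.30 to 1.83) and 1.196 ± 0.217 in controls (from 0.69 to 1.46; SD, n = 10 each). All 10 LSD-treated rats exceeded the control median, and 8 exceeded every control. The difference was 0.40 (exact two-sided permutation test, p = 9.743e-05, adjusted over the 3 ratios 0.000292). Since genes differ in length, a ratio of reads is no ratio of molecules, and only its difference between groups can be read.

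The ratio of *Tcf4* to *Tcf3* did not follow library size within groups (r = 0.003 over 20 rats). With library size as a covariate the difference was 0.40 (SE 0.104, permutation test with 100000 resamples, adjusted p = 0.0021). After correction for span it was 0.28 (exact permutation test, adjusted p = 0.000715). Leaving out each rat in turn gave differences between 0.35 and 0.44.

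The remaining ratios depended on these corrections. *Tcf12* to *Tcf3* was 0.42 ± 0.248 with LSD and 0.04 ± 0.317 in controls, a difference of 0.39 (exact permutation test, p = 0.00802, adjusted p = 0.0120). All 10 LSD-treated rats again lay above the control median. The difference was 0.26 after correction for span (adjusted p = 0.0769) and 0.14 with library size as a covariate (permutation test, adjusted p = 0.208), and so lost its call in both. *Tcf4* to *Tcf12* was 1.18 ± 0.302 with LSD and 1.16 ± 0.252 in controls, a difference of 0.02 (exact permutation test, adjusted p = 0.904). Library size as a covariate made this difference 0.26 (permutation test, adjusted p = 0.0276).

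**Figure D4:**
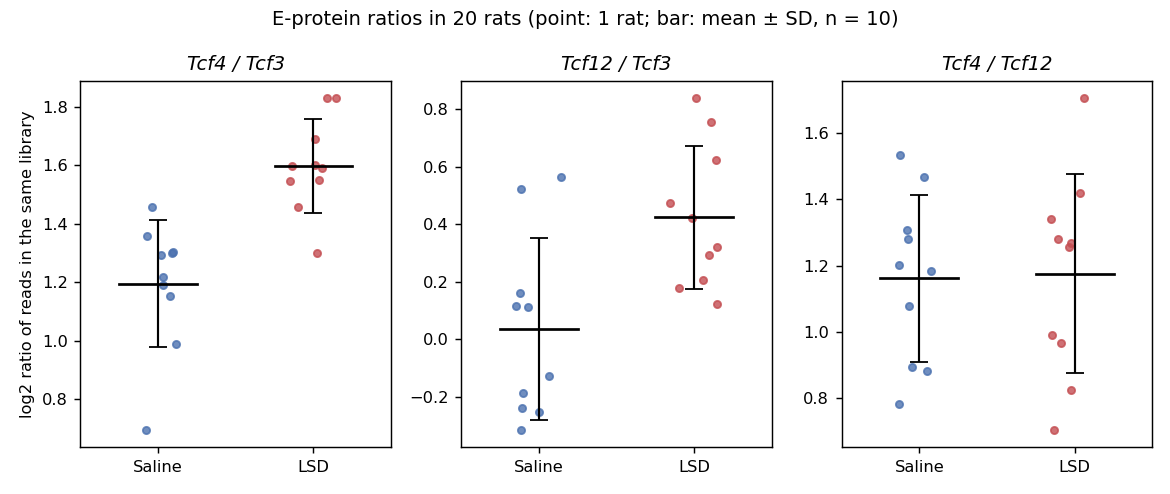
log2 ratio of the reads of 2 E-protein genes in the same library, with 1 point per rat and bars for the mean ± SD of 10 rats. The ratio of *Tcf4* to *Tcf3* sits at 1.60 with LSD and 1.196 in controls with 8 LSD-treated rats above every control, whereas the groups coincide for *Tcf4* to *Tcf12*.

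The *Id* genes encode the inhibitors of E-proteins and are expressed in the adult brain mainly by glial and vascular cells, with *Id2* also found in neurons. No *Id* gene passed the threshold. *Id3* ran from 23.6 through a median of 30.9 to 37.8 RPM with LSD and from 21.4 through 37.3 to 49.3 RPM in controls. Of the LSD-treated rats, 9 of 10 lay below the control median, and the controls spread on both sides of the LSD range. The mean was 30.6 ± 4.58 RPM against 36.4 ± 8.42 RPM (SD, n = 10 each), and the log2 fold change was -0.25 (SE 0.119, 95% interval -0.50 to -0.01, edgeR unadjusted p = 0.0437, adjusted p = 0.149). This was as large as the difference of *Tcf3*, with a wider error. *Id3* spans 1608 bases, and the median log2 fold change of genes of like span was -0.12.

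*Id1*, *Id2* and *Id4* had intervals that took in zero. *Id1* ran from 19.2 to 29.8 RPM with a median of 21.7 in LSD-treated rats, and from 18.0 to 30.8 RPM with a median of 24.7 in controls. Its log2 fold change was -0.03 (95% interval -0.25 to 0.18, edgeR adjusted p = 0.879) and changed sign to 0.02 when libraries were scaled by total counts. *Id2* ran from 44.9 to 57.3 RPM with a median of 49.4 under LSD and from 37.4 to 68.9 RPM with a median of 46.0 in controls, whose spread was wider. The log2 fold change of *Id2* was 0.04 (95% interval -0.14 to 0.21, edgeR adjusted p = 0.826). *Id4* was at 33.1 ± 3.89 RPM with LSD and 32.0 ± 3.82 RPM in controls (SD, n = 10 each), and its log2 fold change was 0.05 (edgeR adjusted p = 0.700).

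The *Neurod* genes encode partners of E-proteins that drive and maintain the fate of excitatory neurons. *Neurod2*, the most highly read of them, ran from 54.3 through a median of 72.5 to 78.9 RPM with LSD and from 54.9 through 70.3 to 84.0 RPM in controls. The groups covered the same range, with a log2 fold change of 0.01 (SE 0.092, 95% interval -0.18 to 0.20, edgeR adjusted p = 0.967). Its level correlated with library size at r = -0.75 within groups, and with library size as a covariate the log2 fold change was 0.21 (adjusted p = 0.0748). *Neurod6* was at 45.6 ± 6.46 RPM with LSD and 47.2 ± 5.87 RPM in controls (SD, n = 10 each), with a log2 fold change of -0.05 (edgeR adjusted p = 0.731). It changed sign to 0.03 after correction for span. *Neurod1*, with 72 to 182 reads per library, was at 6.15 ± 0.708 RPM with LSD and 6.05 ± 0.695 RPM in controls, and its log2 fold change was 0.03 (edgeR adjusted p = 0.864). The 95% interval was -0.22 to 0.12 for *Neurod6* and -0.15 to 0.20 for *Neurod1*. For these genes the intervals, and not the missed threshold, show what sizes of change the data allow within this fit. They do not cover other models, since the covariate estimate of *Neurod2* lay above its interval.

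From rat to rat, the genes formed groups that varied together. Correlations used log2(RPM + 1) after each group's mean was removed, with permutation tests of 100000 resamples within groups and adjustment over the 45 pairs. Of these, 11 passed for Pearson's r (6 positive, 5 negative), and 6 passed for Pearson's r and Spearman's rho alike. The closest pair was *Tcf3* and *Neurod2*, with r = 0.81 (p = 5e-05, adjusted p = 0.00225) and rho = 0.77 (p = 0.00023, adjusted p = 0.0104). It gave r = 0.80 without the 2 rats farthest from the median of *Tcf3*, 0.82 among LSD-treated rats and 0.81 among controls. *Tcf4* and *Neurod2* had r = 0.69 (p = 0.00077, adjusted p = 0.0159), rho = 0.60 (p = 0.00633, adjusted p = 0.0475) and r = 0.61 without the 2 farthest rats. *Tcf12* ran against *Neurod2*, with r = -0.61 (p = 0.00655, adjusted p = 0.0328), rho = -0.70 (p = 0.00138, adjusted p = 0.0207) and r = -0.53 without the 2 farthest rats.

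Among the inhibitors, *Id1* and *Id3* had r = 0.69 (p = 0.00106, adjusted p = 0.0159), rho = 0.73 (p = 0.00057, adjusted p = 0.0128) and r = 0.70 without the 2 farthest rats. *Id4* joined them, at r = 0.62 with *Id1* (p = 0.00426, adjusted p = 0.0320; rho = 0.65, p = 0.00263, adjusted p = 0.0237) and r = 0.61 with *Id3* (p = 0.00511, adjusted p = 0.0328; rho = 0.65, p = 0.00192, adjusted p = 0.0216). Without the 2 farthest rats these were 0.60 and 0.64. *Id2* stood apart from the other *Id* genes, with r between -0.27 and -0.02 to each of them. Its closest member was *Neurod6*, at r = 0.63 (p = 0.00197, adjusted p = 0.0222), although rho of 0.57 missed the threshold (p = 0.00913, adjusted p = 0.0587) and r was 0.48 without the 2 farthest rats.

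Library size was related to some of these pairs and not to others. Once it was removed from both genes, 1 of the 11 pairs passed, *Id1* with *Id3* (r = 0.69, p = 0.0009, adjusted p = 0.0405; rho = 0.72, p = 0.0007, adjusted p = 0.0315). The other pairs of the *Id* block hardly moved in r, at 0.61 for *Id1* with *Id4* (p = 0.00631, adjusted p = 0.0965; rho = 0.58, p = 0.00938, adjusted p = 0.141) and 0.60 for *Id3* with *Id4* (p = 0.00643, adjusted p = 0.0965; rho = 0.63, p = 0.00359, adjusted p = 0.0808). *Tcf3* with *Neurod2* fell, and then had r = 0.50 (p = 0.0388, adjusted p = 0.291; rho = 0.40, p = 0.0881, adjusted p = 0.345). Some levels also correlated with the TMM scaling factor over 20 rats, at r = -0.82 for *Neurod2*, 0.79 for *Tcf12*, -0.68 for *Tcf3* and 0.57 for *Id2*. *Id4* was at 0.06 and *Neurod1* at -0.10. The part of this factor in these pairs was not tested. Neither library size nor this factor was removed from the correlations with marker sums and other genes given below, and their part there was not tested.

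**Figure D5:**
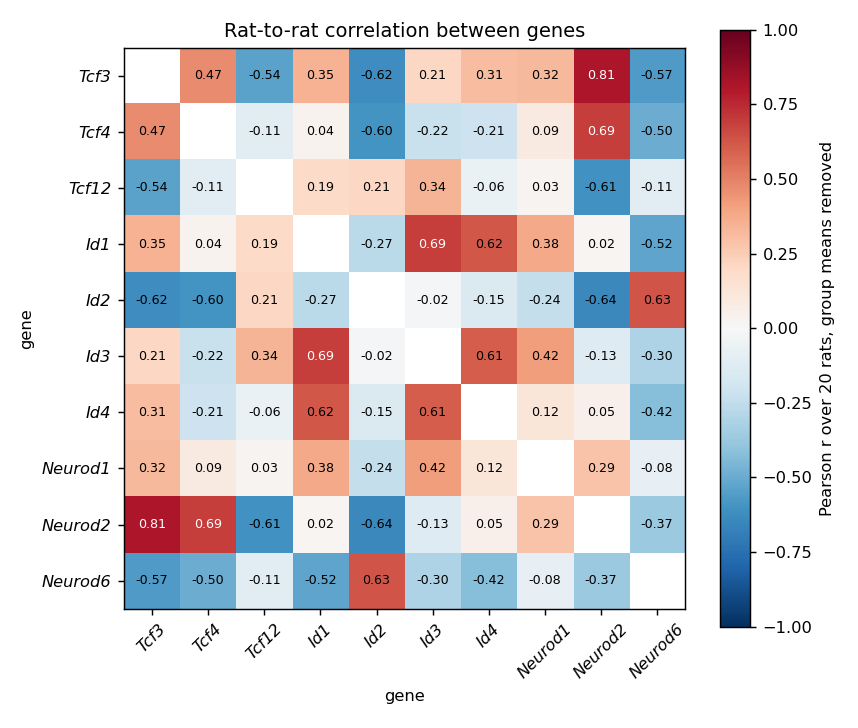
Pearson's r between each pair of the 10 genes over 20 rats, after removal of group means, on a colour scale from -1 to 1. *Tcf3* and *Neurod2* show the strongest correlation at 0.81, *Id1*, *Id3* and *Id4* form a block at 0.61 to 0.69, and *Id2* is negative with *Tcf3*, *Tcf4* and *Neurod2*.

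The cell types of the tissue were checked by marker lists. In bulk tissue, fewer cells of a type and less RNA per cell cannot be told apart. All 10 excitatory neuron markers passed the filter, and their summed level was 5100 to 6970 RPM with LSD and 5245 to 8101 RPM in controls, with 1 of 10 higher (*Rorb*) and none lower. Of 6 inhibitory neuron markers, *Gad2* and *Vip* were higher and *Slc32a1* and *Sst* lower. Of 6 astrocyte markers, *Slc1a2* was higher, and the sums were 2121 to 2808 RPM with LSD and 1966 to 2725 RPM in controls. Of 4 mural cell markers, *Kcnj8* was lower, with sums of 78.2 to 141.1 RPM against 88.7 to 234.2 RPM. None passed of 6 endothelial, 3 meningeal fibroblast, 6 oligodendrocyte, 2 oligodendrocyte precursor, 5 microglia, 3 choroid plexus, 5 striatal neuron and 3 dentate granule markers that were kept. All 6 oligodendrocyte markers and all 5 striatal markers had negative log2 fold changes, with sums of 2232 to 5761 RPM against 2195 to 7479 RPM for the former and 129.7 to 331.0 RPM against 148.3 to 466.3 RPM for the latter. The endothelial marker *Slco1a4* was not analysed here, and each of the other listed markers had reads in at least 1 library.

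The genes correlated with different marker sums within groups, of which some are given here as descriptions over 20 rats. Each sum is led by its most highly read markers. With LSD, *Col1a1* had a mean of 60.4 RPM in the meningeal fibroblast sum, beside 9.83 for *Dcn* and 2.94 for *Lum*. In the striatal sum *Ppp1r1b* had 128.8 RPM, with *Drd1* next at 15.4 RPM. *Slc17a7*, *Nrgn* and *Camk2a* led the excitatory sum, at 1853, 1812 and 1801 RPM. *Neurod2* correlated with the summed excitatory markers at r = 0.90, *Tcf3* at 0.73 and *Tcf4* at 0.57, whereas *Tcf12* correlated with them at -0.73 and with the mural sum at 0.73. The other *Neurod* genes did not follow the excitatory sum closely, with *Neurod1* at 0.23 and *Neurod6* at -0.16. *Tcf4* had its largest r in size with the striatal sum, at -0.60. Spearman's rho of *Tcf4* was -0.38 with the striatal sum and 0.57 with the excitatory sum. *Id3* correlated with the meningeal fibroblast sum at r = 0.79 and with the astrocyte sum at 0.64, and *Id1* with the same sums at 0.63 and 0.50. *Id4* had its highest r with the inhibitory neuron sum, at 0.70. The summed meningeal fibroblast markers were 23.1 to 116.1 RPM with LSD and 32.6 to 194.0 RPM in controls, and their part in the level of *Id3* was not tested.

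The genes most like the leading member of each family were taken by Pearson's r over the 20 rats after removal of group means. Around *Tcf4* these were *Abhd2* (0.93), *Foxk1* (0.93), *Zbtb4* (0.92), *Med13l* (0.92) and *Ctif* (0.91). Around *Neurod2* they were *Kcnc1* (0.94), *Jph4* (0.94), *Tmem175* (0.93), *Fam189a1* (0.93) and *Pde4a* (0.93), and *Tcf3* came in place 585 of this order. Around *Id2* they were *Mpc1* (0.90), *Scg5* (0.89), *Atp5c1* (0.89), *Rpl7l1* (0.88) and *Trappc4* (0.88).

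Tissue-restricted bHLH proteins that pair with E-proteins are called class II partners. Of 41 listed genes of this class 18 were kept, of which 5 (27.8%) were lower and 0 higher, beside 8.54% and 6.48% over all genes. The median log2 fold change of the 18 was -0.28, beside 0.002 over all genes and -0.12 for genes of like span, since most of the 18 are short. *Olig1*, a factor of the oligodendrocyte lineage, was at 117.9 ± 17.6 RPM with LSD and 146.9 ± 25.5 RPM in controls (SD, n = 10 each; log2 fold change -0.32, edgeR adjusted p = 0.0285). *Lyl1*, a factor of blood and endothelial cells, fell by 0.45 on the log2 scale (edgeR adjusted p = 0.0273). The summed endothelial markers were 275.0 to 381.4 RPM with LSD and 313.6 to 455.8 RPM in controls. All 6 oligodendrocyte markers were on the lower side as given above. The precursor markers *Pdgfra* and *Cspg4* had log2 fold changes of 0.05 and -0.16, neither past the threshold. The part of these cell types in the levels of *Olig1* and *Lyl1* was not tested. *Atoh7* and *Msc* were called lower on 6 to 23 and 1 to 13 reads per library. *Olig1* passed with library size as a covariate (adjusted p = 0.0381) but not after correction for span (adjusted p = 0.1145), and *Lyl1*, *Atoh7* and *Msc* passed in neither.

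Cofactors that bind E-protein complexes gave 2 of 16 lower (12.5%, beside 8.54% over all genes) and 0 higher. Both encode LIM-only proteins that bridge bHLH dimers to other factors. *Lmo2* was at 9.24 ± 1.34 RPM with LSD and 13.4 ± 1.54 RPM in controls (log2 fold change -0.53, edgeR adjusted p = 0.00357), and *Lmo1* at 10.1 ± 1.02 RPM against 13.3 ± 2.14 RPM (log2 fold change -0.40, edgeR adjusted p = 0.00755). For both genes every LSD-treated rat lay below the control median, and both kept their call with library size as a covariate and after correction for span.

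BMP signalling through SMAD proteins is the main inducer of *Id* genes. Of 29 kept genes of this list, 2 (6.90%) were higher and 2 (6.90%) lower, which was near the 6.48% and 8.54% over all genes, and the list's median was -0.03 on the log2 scale. The receptor gene *Bmpr2* rose from 124.8 ± 21.95 RPM in controls to 159.0 ± 10.95 RPM with LSD (log2 fold change 0.35, edgeR adjusted p = 0.0106), and *Bmpr1b* had a log2 fold change of 0.27 (edgeR adjusted p = 0.0379). The inhibitor gene *Smad7* fell by 0.17 and the co-receptor gene *Eng* by 0.25 on the log2 scale (edgeR adjusted p = 0.0255 and 0.0422). After correction for span *Bmpr2* (adjusted p = 0.0174), *Eng* (0.0286) and *Smad7* (0.0207) kept their calls, and *Bmpr1b* did not (log2 fold change 0.16, adjusted p = 0.234). None of these 4 passed with library size as a covariate, where *Bmpr2* was at a log2 fold change of 0.29 (adjusted p = 0.0621), *Smad7* at -0.12, *Eng* at -0.14 and *Bmpr1b* at 0.12. Of 11 kept genes in a list of Hes, Hey and related repressors, themselves bHLH proteins, 1 (9.09%) passed in each direction. *Bhlhe40*, which is neither a Hes nor a Hey gene, was higher (log2 fold change 0.22, edgeR adjusted p = 0.0402) and kept its call in both corrections. *Hey2* was lower (-0.31, edgeR adjusted p = 0.0239). It lost its call with library size as a covariate (edgeR adjusted p = 0.263) and after correction for span (edgeR adjusted p = 0.0516).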

How the data were processed

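RNA from the mPFC of 20 rats was sequenced with 1 library per rat, and groups were taken from the sample labels. The deposited values are raw counts per gene, made by the authors with TrimGalore for trimming, Hisat2 for alignment (rn6) and HTSeq-count. The annotation and strand setting are not given in the sources used here. The 5 rows without a name held 25.5% to 29.0% of each library's counts and entered no step.

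Genes reaching 5 reads in 10 or more libraries were tested with edgeR 4.0.16 (quasi-likelihood F test, TMM, Benjamini-Hochberg adjustment over all 16605 genes, threshold 0.05) in R 4.3.3, after a check on simulated data. That check recovered 11 of 100 genes changed 1.2-fold and 68 of 99 genes changed 1.5-fold, so it missed most of its 1.2-fold changes. The share of small changes missed in the data of the rats was not tested. DESeq2 1.42.0, sva 3.50.0 and the settings under the closing section were alternatives. Permutation tests used numpy 2.4.6 in Python 3.11.15, with scipy 1.17.1 for the adjustment of their p-values. Gene spans and sequences come from RefSeq's GRCr8, matched by symbol for 89.9% of genes, and not from rn6. Span correction used offsets smoothed over 5 of 50 bins. RPM values were not corrected for gene length, so levels of different genes are not compared.

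The genes, marker and pathway lists were chosen with earlier results of these data known. Named are the 10 genes, every pathway gene past the threshold, except 1 that is not reported here, and the 5 genes most correlated with the leading gene of each family. The library size covariate and the ratios were added after values were seen. P-values rest on the spread between rats.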

Additional observations from a re-analysis of the deposited data

Results flagged for a closer look

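*Neurod1* in control rat 8 lay far from the other controls, at 4.37 RPM where the next lowest control had 5.54 RPM, a gap of 0.503 of the group's range. It was the only such value in the 20 groups of 10 rats examined, where chance gives about 1 in 20. Without this rat the log2 fold change of *Neurod1* was -0.02 (edgeR adjusted p = 0.908), and the gene was not called with or without it.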

How the results depend on the processing

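Over all genes, 1076 were called higher and 1418 lower (56.9% of calls). With library size as a covariate the counts were 534 and 639, after correction for span 565 were higher, with total-count scaling 858 (36.3%) and without the low-count filter 836 (46.5%) were lower, and the cause was not tested. Leaving out each rat gave 663 to 1669 higher and 957 to 1907 lower, with the extremes without LSD-treated rat 8, control rat 2 and control rat 4. Of the 10 genes, 0 were called higher and 1 lower, except 1 and 0 with library size as a covariate, and 0 or 1 lower without a rat. *Tcf3* kept its call in 10 other settings (adjusted p 0.0101 to 0.0429). Signs changed for values near zero: *Id1* at 0.0179 with total-count scaling, 0.0592 with span correction, 0.0572 with span and replicate block and 0.0454 with library size; *Id2* at -0.116 with library size; *Id4* at -0.00273 and *Neurod2* at -0.00268 at equal depth; *Neurod2* at -0.000533 with 1 surrogate variable; *Neurod6* at 0.0344 and 0.0303 with span correction without and with the block. Without single rats, *Id1* ran from -0.0732 to 0.0147, *Id2* from -0.000377 to 0.105, *Neurod1* from -0.0172 to 0.0597, *Neurod2* from -0.0237 to 0.0445, *Id4* (0.05 with all rats) from 0.0198 to 0.0943, *Neurod6* (-0.05 with all rats) from -0.0858 to -0.0125 and the ratio of *Tcf4* to *Tcf12* from -0.0441 to 0.0678. The replicate block gave 1355 higher and 1606 lower and -0.24 for *Tcf3* (adjusted p = 0.0192), but 6 of 10 same-numbered pairs correlated above 0.1 and 1 of 10 matched its own number best, so the numbers were not taken as pairs. The ratio of *Tcf4* to *Tcf3* under the block had p = 0.00195, the smallest that 1024 sign patterns can give (exact sign-flip test). *Neurod1* was limited by depth, with 72 to 182 reads per library.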

Other observations

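The spread between rats was compared as a description. The coefficient of variation was lower among LSD-treated rats for 7 of the 10 genes (70.0%) and for 12865 of all 16605 genes (77.5%). For *Id2* it was 8.71% with LSD and 18.9% in controls.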
